A study of Mus musculus with 6 samples.

Results

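The SoxE factors Sox8, Sox9 and Sox10 and the SoxD factors Sox5, Sox6 and Sox13 were followed in E14.5 mouse lacrimal gland epithelium with and without the Pea3 family. They were taken by symbol as all 6 genes of both subfamilies, out of 23420 gene symbols in the count tables, and all 6 passed the low-count filter of the fit across genes. The pair of subfamilies was chosen by its fall in these same libraries, since the values of Sox10 and Sox9 in this contrast were already known. The log2 fold changes of the members are therefore given as a description, with no p-value.

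The epithelium was cut from frozen sections by laser capture and its RNA was amplified and sequenced in 3 Control and 3 Pea3 TKO samples. Control embryos were Le-Cre. Pea3 TKO embryos were Le-cre, Pea3-/-, Ermfl/fl, Er81fl/fl, so that the Cre transgene was common to both groups, as were the embryonic age and a mixed strain background. Pea3 is Etv4, Erm is Etv5 and Er81 is Etv1, which are ETS-domain transcription factors induced by FGF signaling. Le-Cre acts in the ocular surface ectoderm and its derivatives, the lacrimal gland and the conjunctiva included, and it also carries a GFP reporter. The Pea3 allele is null in every cell of the embryo, whereas Erm and Er81 are removed only where the transgene is active. Whether a sample pooled several embryos is not given in the sources used here, so the spread between samples may be in part technical.

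SOX proteins bind DNA through a shared HMG box. SoxE proteins carry a transactivation domain and set up several lineages: Sox9 is required for cartilage and for many branching epithelia, Sox10 for neural crest, glia and melanocytes, and Sox8 often overlaps with both. SoxD proteins have no such domain and pair through a coiled coil, by which Sox5 and Sox6 assist Sox9 on cartilage genes and can oppose Sox10 in glia and pigment cells. In the lacrimal gland, Sox9 is needed for the bud to form and Sox10 marks the epithelium that grows out and becomes secretory.

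The HMG box holds the sequence that makes these genes a family, and it is also where reads of one member could be mistaken for another. Below are 60 coding bases of each member from the same place in the box, read 5′ to 3′ on the coding strand, with the bases that are identical in all 6 members in capitals. They come from GENCODE M21 on GRCm38.
Sox10: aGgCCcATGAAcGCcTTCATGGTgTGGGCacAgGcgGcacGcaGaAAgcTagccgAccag
Sox9: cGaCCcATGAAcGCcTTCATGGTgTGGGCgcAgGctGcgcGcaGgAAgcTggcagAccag
Sox8: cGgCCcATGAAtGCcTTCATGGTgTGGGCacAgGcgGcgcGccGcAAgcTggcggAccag
Sox6: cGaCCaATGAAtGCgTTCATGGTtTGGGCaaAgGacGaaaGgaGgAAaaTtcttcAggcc
Sox13: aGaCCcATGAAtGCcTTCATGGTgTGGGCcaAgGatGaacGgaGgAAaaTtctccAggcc
Sox5: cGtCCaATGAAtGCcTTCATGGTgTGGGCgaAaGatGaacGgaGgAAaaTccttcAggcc

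The stretch lies within 1 coding exon of each gene, at chr15:79163342-79163401 for Sox10, chr11:112782903-112782962 for Sox9, chr17:25570163-25570222 for Sox8, chr7:115489703-115489762 for Sox6, chr1:133385506-133385565 for Sox13 and chr6:143841214-143841273 for Sox5. Sox9 is on the plus strand and the others are on the minus strand. Of the 60 bases, 32 were identical in all 6 genes, 50 among the SoxE genes and 49 among the SoxD genes. Over 225 bases of the box, the SoxE pairs shared between 82.2% (Sox10 and Sox8) and 85.8% (Sox9 and Sox8) of their bases, and a SoxE and a SoxD gene shared between 53.8% (Sox8 and Sox6) and 63.1% (Sox9 and Sox13). The longest run without a difference between any pair of members was 44 bases, between Sox9 and Sox10, which is shorter than a read of 100 bases.

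Sequencing depth was similar in the 6 libraries, from 14194775 to 17860140 counts, and 3 counts corresponded to 0.168 to 0.211 CPM. Expression is given as CPM, the counts of a gene per 1000000 counts of the library after TMM normalization, as mean ± SD of n = 3. The targeted genes were low in every Pea3 TKO library. Etv5 fell from 1058 ± 128 to 139 ± 45.8 CPM, with a log2 fold change of -2.93. On the log2 scale Etv4 fell by 2.95 and Etv1 fell by 1.74. The Y-linked transcripts summed to between 135.7 and 174.7 CPM in the Control libraries and to 139.0 in Pea3 TKO 3, but to only 0.444 and 0.210 in Pea3 TKO 1 and 2. Embryo sex was thus unequal between the groups, and Pea3 TKO 3 is the mutant library that matches the Control libraries in it. In a fit with Y-linked expression as a covariate, the group difference therefore rests largely on Pea3 TKO 3. Pea3 TKO 1 and 2 also differed from Pea3 TKO 3 in mesenchyme markers. A call lost in that fit is thus not read as an effect of embryo sex.

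Of the SoxE genes, Sox10 lost most of its transcripts, Sox9 kept most of its own, and Sox8 was almost absent from the mutant. Among the SoxD genes, Sox6 fell to about the same share of its control level as Sox10, while Sox13 and Sox5 differed less. In counts, 4 of the 6 members were lower at an adjusted p under 0.05, namely Sox10, Sox9, Sox8 and Sox6, and 0 were higher. Over all 13087 genes tested, 11.3% were lower and 13.6% were higher by the same rule. Every Pea3 TKO library lay below every Control library for 5 of the 6 members, against 21.3% of all genes, and the log2 fold change was below 0 for 6 of 6, against 49.2%. The median log2 fold change was -1.37 over the members and 0.01 over all genes tested. Because the contrast itself led to the choice of these genes, nothing is read from these shares.

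**Figure D1:**
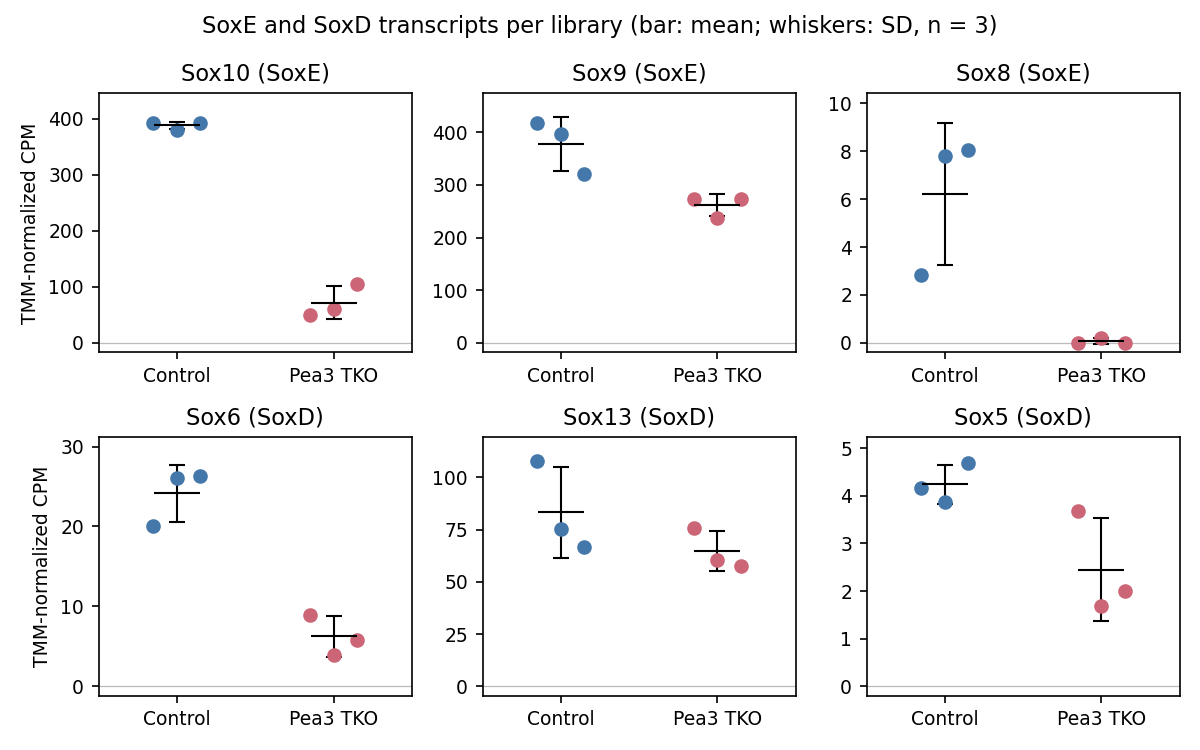
TMM-normalized CPM of each SoxE and SoxD gene in the 3 Control (blue) and 3 Pea3 TKO (red) libraries, each panel on its own linear axis; points are libraries, the horizontal bar is the mean and the whiskers are the SD. The groups are apart for all members except Sox13, whose highest Pea3 TKO library (75.8 CPM) is above 2 Control libraries.

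Sox10 (chr15:79154908-79165240, minus strand), the SoxE factor of neural crest and of glandular outgrowth, was steady in the Control libraries, at 391, 380 and 392 CPM in Control 1, 2 and 3. It was at 49.5, 60.6 and 106 CPM in Pea3 TKO 1, 2 and 3. The Pea3 TKO libraries are all far below the Control libraries, and the library with embryo sex like the controls is the highest of them. The means were 388 ± 6.42 and 71.9 ± 29.7 CPM, so the mutant kept 18.5% of the control level, with a log2 fold change of -2.43 (SE 0.245). It was -1.87 with Y-linked expression as a covariate. In the Control libraries the mean CPM of Sox10, not divided by length, was higher than that of 97.0% of the genes tested.

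Sox9 (chr11:112782224-112787760, plus strand), which acts upstream of Sox10 in several tissues, fell much less. It was at 417, 397 and 321 CPM in the Control libraries and at 274, 237 and 274 CPM in the Pea3 TKO libraries. The groups did not overlap, although Control 3 lay nearer to the mutant than the other controls did. The mutant mean was 69.1% of the control mean (262 ± 21.1 against 378 ± 50.8 CPM), and the log2 fold change was -0.53 (SE 0.131). The call of Sox9 was lost with Y-linked expression as a covariate (log2 fold change -0.46), without Control 2 (-0.50) and without Pea3 TKO 2 (-0.46).

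Sox8 (chr17:25565892-25570686, minus strand), the third SoxE gene, was a low transcript. It had 50, 125 and 124 counts in Control 1, 2 and 3 and 0, 3 and 0 counts in Pea3 TKO 1, 2 and 3. It was thus detected in every Control library, with Control 1 the lowest, and in only 1 Pea3 TKO library. Summed over each group, 3 counts against 299 put the mutant at 1.05% of the control level (exact 95% interval 0.215 to 3.09%, which covers counting error only), or 95.4-fold lower (32.3 to 465). The fitted log2 fold change of -6.41 (SE 1.05) depends on the small count added by the fit and is not a measured size.

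Sox8 has a neighbour on the opposite strand, and the pair fell together. The annotation places 2810468N07Rik, a gene named here after its values were seen, at chr17:25570358-25575043 on the plus strand, where it shares 329 bases with Sox8. It had 250, 200 and 254 counts in the Control libraries and 35, 20 and 77 counts in the Pea3 TKO libraries, a log2 fold change of -2.39 (SE 0.436, edgeR quasi-likelihood test, Benjamini-Hochberg adjusted p = 0.00427). With Y-linked expression as a covariate its adjusted p was 0.107. The strand setting of the counting is not given in the sources used here, so reads in the shared bases cannot be told apart between the genes.

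The 250 bases before the annotated start of Sox8 are printed here because they also hold the starts of 3 of the 4 transcripts of 2810468N07Rik. They are chr17:25570687-25570936 of GRCm38.p6 (RefSeq), read 5′ to 3′ on the minus strand, and capitals mark the 120 bases between the nearest of those antisense starts and the start of Sox8.
Sox8 upstream: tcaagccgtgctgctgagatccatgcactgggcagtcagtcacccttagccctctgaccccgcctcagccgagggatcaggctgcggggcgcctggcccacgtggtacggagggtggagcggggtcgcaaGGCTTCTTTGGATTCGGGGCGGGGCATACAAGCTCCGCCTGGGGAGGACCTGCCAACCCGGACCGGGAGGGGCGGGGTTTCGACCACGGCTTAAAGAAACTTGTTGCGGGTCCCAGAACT

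Because Pea3 proteins recognise a GGAA core, these letters were searched on both strands of 32851 such windows, of which 93.4% held at least 1 match. The Sox8 window held 0. The single windows of Sox13 and Sox5 held 2 and 3 matches, and the 6 windows of Sox6 held 19 together. The longer CCGGAAG, which contains the core, was in 6.91% of all windows and in 0 of the windows of Sox8, Sox13, Sox5 and Sox6. No window of Sox10 or Sox9 was searched. Such a match is a description of the letters and not a binding site.

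Sox6 (chr7:115470872-116038796, minus strand) was the SoxD gene with the deepest fall. It was at 20.1, 26.1 and 26.3 CPM in the Control libraries and at 8.95, 3.99 and 5.82 CPM in the Pea3 TKO libraries, so that even the highest mutant library was under the lowest control. The mean went from 24.2 ± 3.54 to 6.25 ± 2.51 CPM, or 25.9% of the control level, with a log2 fold change of -1.95 (SE 0.317). With Y-linked expression as a covariate the fold change was -2.03, of similar size, but the call was lost.

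Sox13 (chr1:133382303-133424377, minus strand), the most abundant SoxD gene, overlapped between the groups. It was at 108, 75.2 and 66.6 CPM in the Control libraries and at 75.8, 60.7 and 57.8 CPM in the Pea3 TKO libraries. The log2 fold change of -0.36 (SE 0.195) did not pass the threshold and was -0.13 without Control 1, the highest library. Within a library, the log2 ratio of Sox13 to Sox6 counts went from 1.77 ± 0.58 to 3.44 ± 0.44, with no overlap between the groups.

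Sox5 (chr6:143828425-144781977, minus strand), the closest relative of Sox6 in cartilage, was scarce in both groups. It was at 4.17, 3.86 and 4.68 CPM in the Control libraries and at 3.68, 1.68 and 1.997 CPM in the Pea3 TKO libraries. The groups were apart by a small margin, since Pea3 TKO 1 was just under the lowest control. The log2 fold change of -0.79 (SE 0.504) did not pass the threshold, and it was -1.20 without Pea3 TKO 1. The antisense and intronic genes annotated over Sox5 and Sox6 (Sox5os1 to Sox5os5, Sox5it and Sox6os among them) are not rows of the count tables, so they are not analysed here.

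Levels can be compared between members only per length, which was done as FPKM, the CPM divided by the kilobases of annotated exon. In the Control libraries Sox10 was highest, at 127 ± 2.10 FPKM, and Sox9 followed at 91.5 ± 12.3. Sox13 came next at 19.3 FPKM, then Sox8 at 2.0, Sox6 at 1.63 and Sox5 at 0.295. The order of Sox8 and Sox6 was not settled, because with the length of the longest transcript in place of all exons Sox6 was at 2.79 and Sox8 at 2.07. In the Pea3 TKO libraries Sox9 was highest at 63.2 ± 5.09 FPKM, and Sox10 was at 23.6 ± 9.73, so the leading SoxE gene was Sox10 in all 3 Control libraries and Sox9 in all 3 Pea3 TKO libraries. Lower levels in bulk samples can come from fewer cells that hold a transcript or from less of it per cell, which cannot be told apart here.

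**Figure D2:**
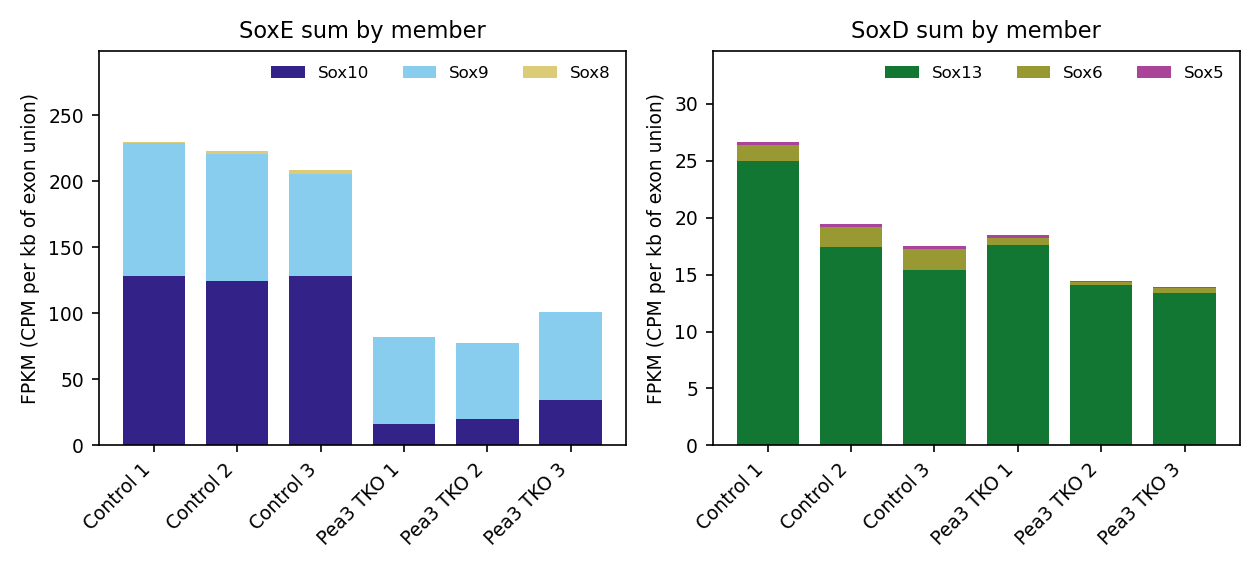
Stacked FPKM (CPM per kilobase of annotated exon) of the SoxE genes (left) and SoxD genes (right) in each of the 6 libraries. The SoxE sum falls from 220.6 to 86.8 FPKM with Sox9 the larger part in the mutant, whereas Sox13 makes up most of the SoxD sum in every library.

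The balance of Sox9 to Sox10 within a library is free of normalization between libraries. The log2 ratio of Sox9 to Sox10 counts was 0.09, 0.06 and -0.29 in the Control libraries and 2.47, 1.97 and 1.37 in the Pea3 TKO libraries. It moved by 1.98, from -0.05 ± 0.21 to 1.94 ± 0.55, and by 1.72 to 2.26 when 1 library was left out. Per length, Sox9 was at 0.72 ± 0.101 of the Sox10 level in the controls and at 2.96 ± 1.09 times that level in the mutants. Pea3 TKO 1 and 3 were the ends of that range.

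The SoxE sum per length went from 220.6 ± 11.0 to 86.8 ± 12.3 FPKM and did not overlap between the groups. The share of Sox10 in it went from 57.7% to 26.6%, and that of Sox9 from 41.4% to 73.4%. The SoxD sum was closer, at 21.2 ± 4.80 and 15.6 ± 2.47 FPKM, and overlapped. Sox6 made up 8.07% of it in the controls and 2.65% in the mutants, and Sox13 made up 90.5% and 96.3%. The ratio of the SoxE to the SoxD sum was 10.7 ± 1.77 in the controls and 5.68 ± 1.41 in the mutants.

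The levels in Pea3 TKO 3 alone, whose Y-linked sum was within the range of the controls, are given as a description. They are not separate from the fit with the Y-linked covariate. This library held 27.2% of the mean control level of Sox10, 72.3% of that of Sox9 and 24.1% of that of Sox6. It held 69.5% of the mean control level of Sox13 and 47.1% of that of Sox5, and it had no Sox8 count.

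The other SOX genes were the nearest comparison in the series. Of 14 listed, 6 passed the low-count filter, of which 3 were lower (50.0% against 11.3% of all genes), 0 were higher and 3 did not pass the test (edgeR quasi-likelihood test, Benjamini-Hochberg adjusted over all genes). With only 6 genes tested, these shares are not read as a result about the SOX family. The SoxB gene Sox21, a repressor in neural progenitors, fell by 1.71 (adjusted p = 0.0152), from 15.2 ± 1.16 to 4.66 ± 2.78 CPM. The SoxC genes Sox11 and Sox4, which act in progenitor survival and differentiation, fell by 0.61 and 0.46 (adjusted p = 0.0195 and 0.0256), a size close to that of Sox9. The call of Sox21 was lost without Pea3 TKO 1 (adjusted p = 0.0558), that of Sox11 without Control 2, Control 3 or Pea3 TKO 2 (at most 0.0814), and that of Sox4 without Control 1, Control 2, Pea3 TKO 2 or Pea3 TKO 3 (at most 0.0906). With Y-linked expression as a covariate only the call of Sox21 held. Sox12 (-0.21), Sox15 (-0.32) and Sox7 (1.88) did not pass the test. Sox7 was scarce, with means of 0.376 CPM in the controls and 1.43 CPM in the mutants. It was at 0 in Control 2 and Control 3, so the size of its fold change depends on the small count added by the fit.

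**Figure D3:**
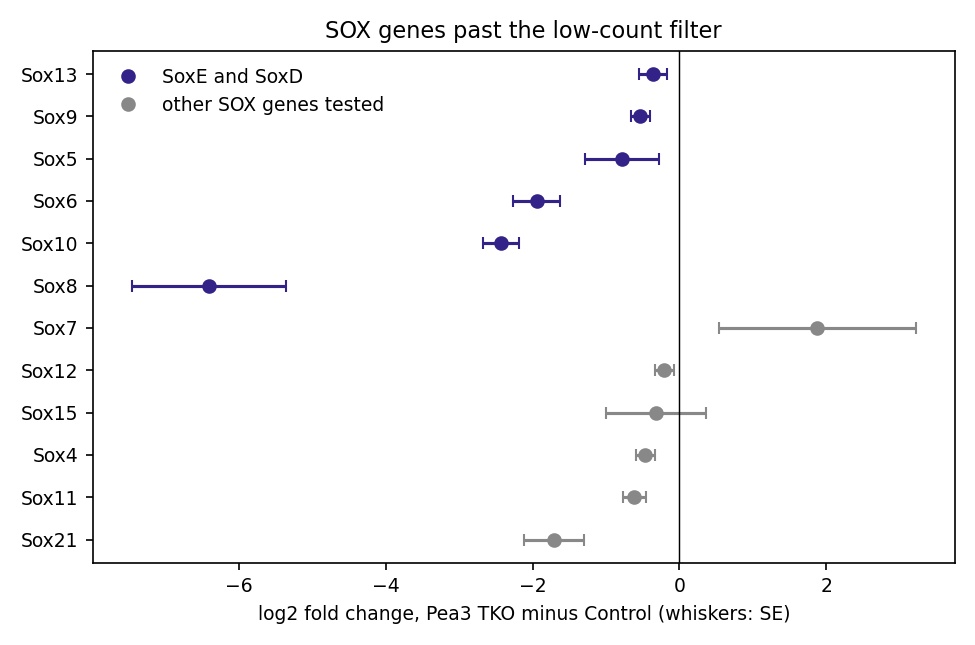
Log2 fold change (Pea3 TKO minus Control) with its SE for every SOX gene that passed the low-count filter, SoxE and SoxD genes in dark blue and the others in grey. The members run from -0.36 (Sox13) to -6.41 (Sox8, a value that depends on the fit's added count), and Sox7 at 1.88 is the only SOX gene above 0.

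Genes that SOX9, SOX5 and SOX6 are known to activate in cartilage were measured as a list of 20. The list was written from textbook knowledge, with earlier results of these data known. The paper had already reported Col2a1 and Col9a1 as lower in the mutant. The shares of the list are therefore a description, and nothing is read from them. Of 13 that passed the filter, 8 were lower (61.5% against 11.3% of all genes) and 3 were higher (23.1% against 13.6%), with a median log2 fold change of -1.18 (also with Ucma at its bound), and the listed genes summed to between 2653 and 3028 CPM in the Control libraries and between 425.6 and 461.9 CPM in the Pea3 TKO libraries. The lower genes were led by collagens that lacrimal epithelium made at high levels. Col9a1, a chain of type IX collagen, was at 707, 731 and 838 CPM in the Control libraries and at 5.72, 7.41 and 6.52 CPM in the Pea3 TKO libraries. Its log2 fold change was -6.86 (edgeR quasi-likelihood test, adjusted p = 2.83e-08). Col2a1, the type II collagen whose enhancer is the classic SOX9 target, went from 1122 ± 121 to 27.7 ± 4.10 CPM (log2 fold change -5.34, adjusted p = 1.19e-07). These 2 matrix genes fell to a few percent of their level or less. Of the SOX genes behind the list, Sox9 kept 69.1% and Sox6 kept 25.9% of the control level. The part of the SOX genes in the falls of Col9a1 and Col2a1 was not tested.

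The rest of the list was mixed. Col9a3, another type IX chain, fell by 1.87 (adjusted p = 9.52e-05, edgeR) and kept 207 ± 46.9 of 758 ± 9.89 CPM. Mia, a secreted cartilage protein, fell by 1.24 (adjusted p = 0.000945). Ucma, a cartilage matrix protein, had 226 counts over the Control libraries and 0 in the mutants, which is at least 72.1-fold lower against 3 counts over the group. Lect1, an antiangiogenic cartilage protein, rose instead, from 2.96 ± 1.34 to 26.4 ± 4.37 CPM (log2 fold change 3.15, adjusted p = 0.000508), as did Papss2, which makes the sulphate donor (2.97, adjusted p = 0.00424), and Fgfr3 (2.45, adjusted p = 0.0332). The call of Fgfr3 was lost on leaving out Control 2, Control 3, Pea3 TKO 1 or Pea3 TKO 2 (largest adjusted p 0.127), those of Col9a2 without Control 3 or Pea3 TKO 2 (0.0646) and of Col11a1 without Control 2 or 3 or Pea3 TKO 2 or 3 (0.115). With Y-linked expression as a covariate the calls of Col27a1 (log2 fold change -3.125 without it, adjusted p = 0.0571 with it), Ucma (0.051) and Papss2 (0.0803) were lost as well. Those of Col9a1, Col2a1, Col9a3, Mia and Lect1 held under all 13 alternatives. Cartilage genes were uneven in level, with Acan at most 0.210, Matn1 at most 0.350 and Col10a1 at most 0.0699 CPM in any library. Hapln1, a link protein of cartilage matrix, ran from 3.19 to 16.1 CPM over the 6 libraries, Matn3 reached 4.58 CPM and Lect1 reached 31.2 CPM.

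**Figure D4:**
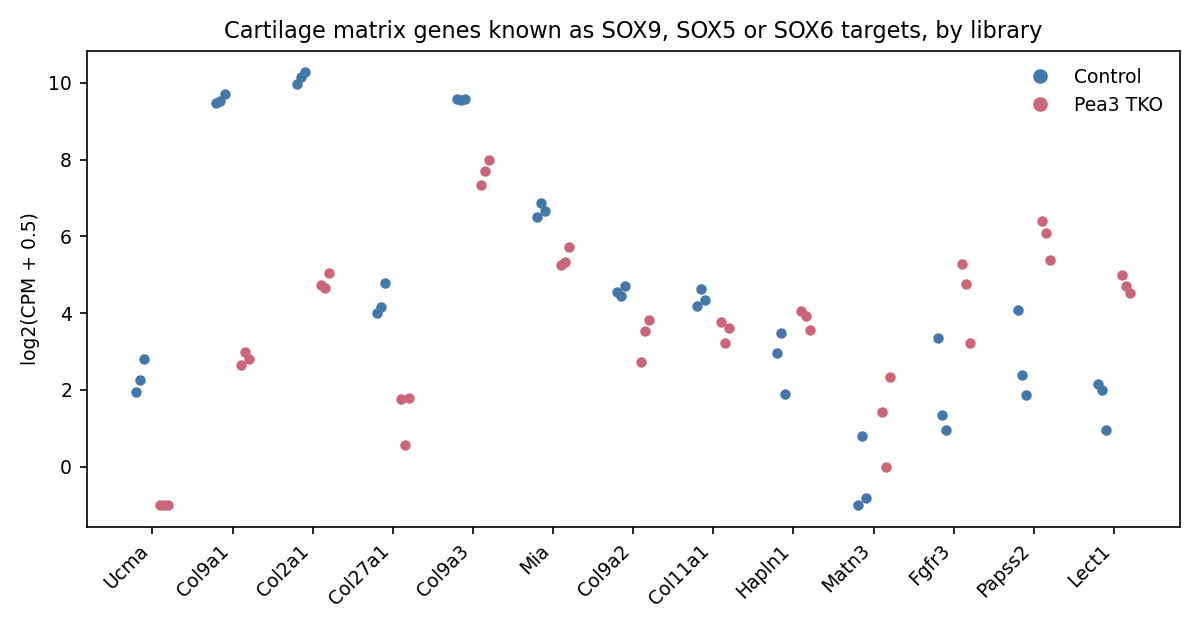
Log2(CPM + 0.5) of the 13 tested cartilage matrix genes in each library, Control in blue and Pea3 TKO in red, ordered by log2 fold change. Col2a1 lies highest in the Control libraries, followed by Col9a1 and Col9a3 at similar levels. The log2 fold changes of Col2a1, Col9a1 and Col9a3 are -5.34, -6.86 and -1.87. Lect1, Papss2 and Fgfr3 at the right are higher in the mutant.

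Genes known to depend on SOX10 in neural crest and glia were a list of 19, of which 9 passed the filter. Of these, 2 were lower (22.2% against 11.3% of all genes) and 1 was higher (11.1% against 13.6%), and the median log2 fold change was 0.21. With so few genes, these shares are not read as a result about the list. Erbb3, the neuregulin receptor that SOX10 activates in glia, was at 207, 276 and 307 CPM in the Control libraries and at 101, 116 and 117 CPM in the Pea3 TKO libraries (log2 fold change -1.24, edgeR adjusted p = 0.000654). Ednrb, the endothelin receptor of neural crest, fell by 1.73 from 7.09 to 2.13 CPM (adjusted p = 0.0215), a call that was lost without Control 2, Control 3 or Pea3 TKO 2 (largest adjusted p 0.087). Egr2, a myelination factor and also an immediate early gene, rose from 1.28 ± 0.897 to 10.5 ± 2.64 CPM (log2 fold change 3.03, adjusted p = 0.00615). Mbp, a myelin gene, was at 71.3 ± 10.7 CPM in the controls and at 64.0 ± 6.29 CPM in the mutant and did not pass the test. The calls of Erbb3 and Egr2 held under all 13 alternatives.

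SOX proteins need partners on DNA, and cofactors were measured as another list. Of 17 listed, 15 passed the filter, with 5 higher (33.3% against 13.6% of all genes), 2 lower (13.3% against 11.3%) and a median log2 fold change of 0.05. The share that was lower is thus near that over all genes. Pou3f1, a POU factor that works with SOX10 in Schwann cells, rose by 4.81 (edgeR adjusted p = 0.00832). It was at 0.084 CPM in the controls, below the level of 3 counts, and at 2.52 CPM in the mutants. The size of its rise therefore depends on the small count added by the fit. Arid5b, which assists SOX9 in cartilage, rose by 0.82 (adjusted p = 0.0208) and Smad3, a SOX9 partner in TGF-beta signaling, by 0.43 (adjusted p = 0.0199). Ctbp2, a corepressor that binds Sox6, fell by 0.89 (adjusted p = 0.00139). The call of Arid5b was lost without Control 2 or Pea3 TKO 1 (adjusted p at most 0.0731) and that of Smad3 without Control 2, Control 3, Pea3 TKO 2 or Pea3 TKO 3 (at most 0.0732). With Y-linked expression as a covariate 0 of the 7 calls of this list held. Over all genes, that fit called 290 lower and 497 higher, against 1485 and 1783 without the covariate.

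The genes with the most similar profile were found for each member as the smallest root mean square difference of log2(CPM + 0.5) over the 6 libraries, after each gene was centred on its own Control mean. For Sox10 they were Mapk4 (0.135), Nmnat2 (0.198) and Dact2 (0.203), and only 2 genes were within 0.2. Dact2, a modulator of Wnt and TGF-beta signaling, was at 61.2 CPM in the controls and 11.3 in the mutants. For Sox8 they were Sema3b (0.261), Gm10432 (0.314) and Hs3st3a1 (0.318), with 0 within 0.2. For Sox6 they were Pip5kl1 (0.181), 8430427H17Rik (0.236) and Limch1 (0.245). The profile of Sox9 was common, since 626 genes lay within 0.2 of it, led by Vrk1, Ccdc124 and Aimp2. Sox13, led by Wbp2, Rasl11b and Zfp446, had 176 such genes and Sox5, led by Ankrd11, Zfp61 and Rassf1, had 37. The added 0.5 CPM shrinks differences at low levels, so genes near in profile need not have fallen by the same size. Nmnat2 went from 4.09 to 0.219 CPM, a log2 fold change of -4.13 against -2.43 for Sox10. Pip5kl1 went from 2.16 to 0.315 CPM, at -2.74 against -1.95 for Sox6. Sox8 is itself at a low level. All these genes share the same 6 libraries, and likeness of profile is a description.

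Because Sox10 and Sox9 also mark glia, melanocytes and cartilage, markers of these and other cell types were read in the same libraries. The listed glial markers summed to between 326.8 and 416.7 CPM in the controls and 177.6 and 219.9 CPM in the mutants, but this sum was mostly Erbb3 and Mbp. Of the other listed glial genes, Fabp7 was at 23.1, 25.0 and 28.7 CPM in the Control libraries and at 14.7, 14.96 and 26.7 CPM in the Pea3 TKO libraries. Ngfr was at 12.5, 12.3 and 10.6 CPM in the Control libraries and at 3.30, 5.45 and 8.22 CPM in the Pea3 TKO libraries (log2 fold change -1.06, edgeR adjusted p = 0.0607). Only part of the list was near 0, with Cdh19 at 0 in every library and Foxd3 at most 0.169 CPM, and the part of glia in the levels of Sox10 was not tested. Melanocyte markers summed to at most 6.15 CPM, with Tyrp1 at 0 in every library. Of the 9 cartilage markers in the tables, 4 were tested, and Lect1 rose and Ucma fell. The sum of that list was 13.2 to 20.7 CPM in the Control libraries and 39.1 to 50.9 CPM in the Pea3 TKO libraries, and its part in the levels of Sox9 was not tested.

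Markers of epithelium differed between the groups, whereas those of mesenchyme were high in Pea3 TKO 1 and 2 but not in Pea3 TKO 3. Of 11 stratified epithelium genes 10 were higher in the mutant (90.9% against 13.6% of all genes). The list summed to 562.1 to 1647 CPM in the Control libraries and 5422 to 7721 CPM in the Pea3 TKO libraries. Of 9 lacrimal and simple epithelium genes 7 were higher (77.8% against 13.6%). Of 12 mesenchyme genes 2 were called higher (16.7%), a share near the 13.6% over all genes. The list summed to 239.6 to 320.2 CPM in the controls and to 691.9, 866.4 and 274.5 CPM in Pea3 TKO 1, 2 and 3. Foxc1 alone made up 184 to 279 CPM of each sum. Without it, the other 11 genes summed to 21.7, 33.8 and 136 CPM in Control 1, 2 and 3 and to 421, 587 and 15.4 CPM in Pea3 TKO 1, 2 and 3. The part of these differences in the levels of the SOX genes was not tested.

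**Figure D5:**
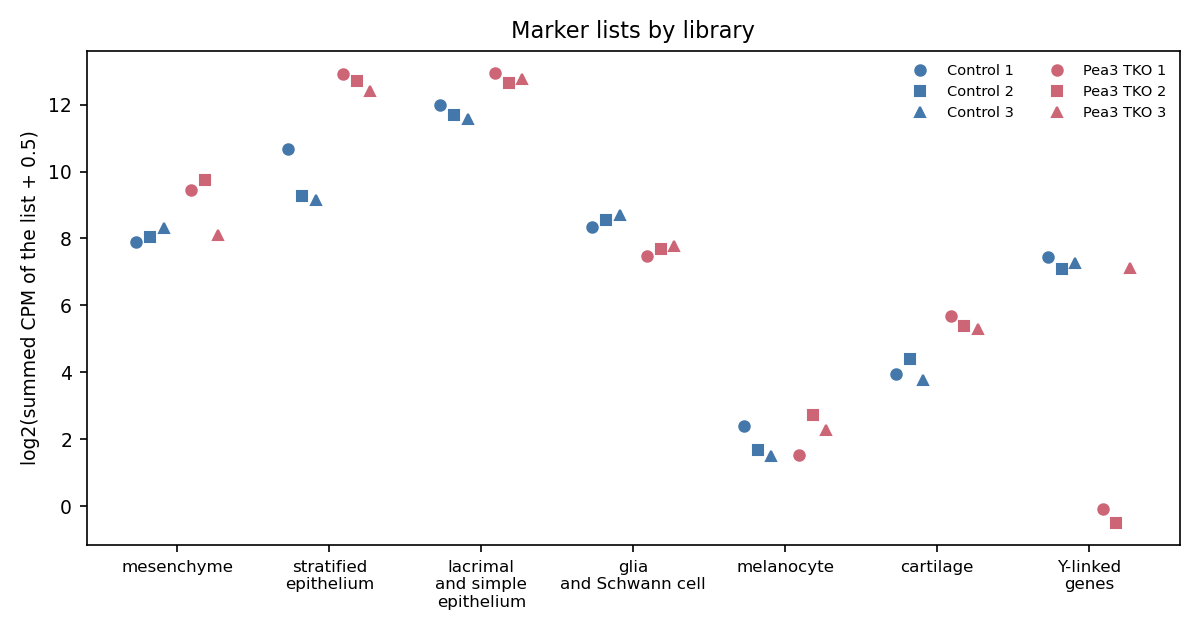
Log2 of the summed CPM (+ 0.5) of 7 gene lists in each library, Control in blue and Pea3 TKO in red, with the marker shape giving the replicate number. Pea3 TKO 3 (triangle) lies with the Control libraries for mesenchyme (274.5 CPM) and Y-linked genes (139.0 CPM) and with the other mutants for stratified epithelium.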

How the data were processed

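RNA from E14.5 lacrimal gland epithelium was measured in 3 Control and 3 Pea3 TKO samples, grouped by the genotype in the labels. The deposited values were raw read counts by gene symbol, in a separate table for each sample, which the authors did not normalize. The submitters' processing notes name bcl2fastq 2.17, STAR 2.5.2b, featureCounts 1.5.0-p3, DESeq and mm10, whereas the annotation and the strand setting are not given in the sources used here. RNA was amplified from laser-captured cells, so counts are not independent molecules.

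Genes were kept by filterByExpr, normalized by TMM and compared with the quasi-likelihood F test of edgeR 4.0.16 (R 4.3.3), with no term beside the group, and p-values were adjusted by Benjamini-Hochberg over 13087 genes. Calls use an adjusted p under 0.05. The SE was taken from F, as |log2 fold change| over its square root. With 3 samples against 3 an exact permutation test cannot go below 0.1, so none was used. Gene positions and exon lengths are those of GENCODE M21 (GRCm38) by symbol, found for 94.1% of tested genes. The scripts were tested on simulated counts.

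The members and the gene lists were chosen with earlier results of these data known. Named genes are the members, Etv4, Etv5 and Etv1, every other SOX gene that passed the filter, up to 5 genes with the smallest p of each list (some left out of the text), the 3 nearest profiles of each member, genes named as overlapping a member, and Y-linked genes. Genes outside this rule are Col9a2, Col11a1, Col27a1, Fgfr3, Papss2, the marker genes at or near 0 and 2810468N07Rik, chosen after their values were seen. Alternatives were DESeq2 1.42.0, other size factors, other filters on low counts, a replicate block, a covariate of log2(CPM + 0.5) of summed Y-linked counts, and leaving out each library.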

Additional observations from a re-analysis of the deposited data

How the results depend on the processing

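Directions of the 6 members held under every alternative run. The group difference in the fit with the Y-linked covariate rests largely on Pea3 TKO 3. Calls lost in it are therefore not read as an effect of embryo sex. With Y-linked expression as a covariate, genes lower and higher numbered 290 and 497, members lower 2 (without Sox9 and Sox6), cartilage targets lower and higher 4 and 1, SOX10 targets lower 1, cofactors lower and higher 0 and 0, and other SOX genes lower 1. The member fold changes were then -1.87 for Sox10, -0.46 for Sox9, -12.15 for Sox8 (which depends on the count added by the fit), -2.03 for Sox6, -0.51 for Sox13 and -1.06 for Sox5. SOX10 targets higher numbered 2 with upper-quartile factors and with the replicate block, and 3 with no low-count filter and with DESeq2, against 1. The numbers did not pair the samples (r = 0.14, -0.0545 and 0.0298 for same-numbered samples), and with the replicate block Sox10 was at -2.51, Sox9 at -0.53, Sox8 at -6.62 and Sox6 at -2.004. Leaving out 1 library gave 799 to 1417 genes lower (832, 799 and 873 without Control 2, Control 3 and Pea3 TKO 2) and 1131 to 1948 higher (1131 and 1149 without Control 2 and 3), 3 to 4 members, 6 to 8 and 2 to 4 cartilage targets, 1 to 2 and 1 to 3 SOX10 targets (3 without Control 1), 1 to 3 and 2 to 4 cofactors, and 1 to 2 and 0 to 1 other SOX genes, lower and higher in turn. Log2 fold changes then ran from -2.82 to -2.22 for Sox10, -0.64 to -0.46 for Sox9, -9.68 to -5.84 for Sox8, -2.30 to -1.71 for Sox6, -0.50 to -0.13 for Sox13 and -1.20 to -0.58 for Sox5. The Sox9 call was lost without Control 2 (-0.50) and without Pea3 TKO 2 (-0.46). The causes were not tested. Depth limits Sox8, Sox5 and Ucma, which have few counts.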
